A study of Danio rerio with 40 samples.

Results

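Cartilage genes were followed in whole zebrafish larvae (Danio rerio) that lack smad3a, smad3b, smad6a and smad6b and in wild-type control cousins. The set was defined by name, as the entries for sox9a, sox9b, acana, acanb, matn1, matn3a, matn4, cnmd, hapln1a and hapln1b. It held 10 of the 32520 genes in the count table, with 1 entry for each name. Collagen genes were not part of the set. All 10 genes passed the filter on low counts.

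The series asks how loss of Smad3 alters aortic disease linked to Smad6 in zebrafish. Of its 40 samples, the 10 larval libraries made with the TruSeq Stranded Total RNA kit were used, and the other 30 were not analysed here. They were 5 pools of the smad3a-/-;smad3b-/-;smad6a-/-;smad6b-/- quadruple knockout and, as controls, 5 pools of wild-type cousins. Each pool held 5 larvae at 5 days post fertilization. Cousins share a background less closely than siblings would, and the labels give no mutant alleles. Total counts were 16062147 to 110409906 in controls and 20752303 to 191289475 in knockouts. The 10 genes held between 200 and 118527 counts in a library, so counting error was small beside the spread between pools.

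Cartilage is a tissue of chondrocytes embedded in a matrix of collagen and sulfated proteoglycan. The transcription factor Sox9 switches on the chondrocyte programme together with its partners Sox5 and Sox6. Aggrecan, the main proteoglycan, is bound to hyaluronan chains by link protein (Hapln1), while matrilins connect the proteoglycan and collagen networks. At this larval stage the cartilage of the head and pectoral fin is well formed, and BMP and TGF-beta signals, which Smad proteins relay or restrain, are known to act in its formation. In a whole larva these genes are also used elsewhere, for example sox9b in glia of the retina and brain and hapln1a in heart and fin matrix.

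Levels are CPM, the counts of a gene relative to its library's total, with libraries scaled by TMM. A gene was called when its adjusted p over all tested genes was under 0.05 by edgeR (quasi-likelihood F test, Benjamini-Hochberg). The pools of each genotype stood apart in sets, pools 1 and 2 against pools 3 to 5. Across 22894 genes, the deviations of control pools from the control mean correlated at 0.04 to 0.27 within a set and at -0.55 to -0.42 between sets. In knockouts these correlations were -0.03 to 0.31 and -0.62 to -0.38. Such deviations sum to 0, so part of the negative correlation is built in, and genes are not independent replicates. The labels name no batch, and genotype and set cannot be told apart where a value rests on 1 set. The main results are therefore given by set as well. Transcripts of smad3a and smad3b were lower in knockouts (log2 fold change -1.90 and -1.09) and those of smad6a and smad6b higher (0.36 and 0.62), all called by edgeR. A transcript level does not show whether a protein is made.

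Of the 10 cartilage genes, 4 were higher in the quadruple knockout and none was lower. The 4 were the link proteins hapln1a and hapln1b, the matrilin matn1 and the aggrecan gene acana. Of all tested genes 25.8% were called, with 13.4% called higher in the knockout and 12.5% lower. Without the adjustment, 7 of the 10 genes had a p under 0.05 by edgeR, all higher, beside 8875 of all 22894 tested genes in both directions. DESeq2's Wald test called 5 of the 10, all higher, adding matn4, and 6620 of 28734 genes in all. The median log2 fold change of the 10 genes was 0.32, beside 0.03 for all tested genes. The 10 genes differed among themselves, from 0.06 for sox9a to 0.96 for hapln1b. In whole larvae, more chondrocytes, more RNA per chondrocyte and more RNA from other tissues that use these genes cannot be told apart.

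**Figure D1:**
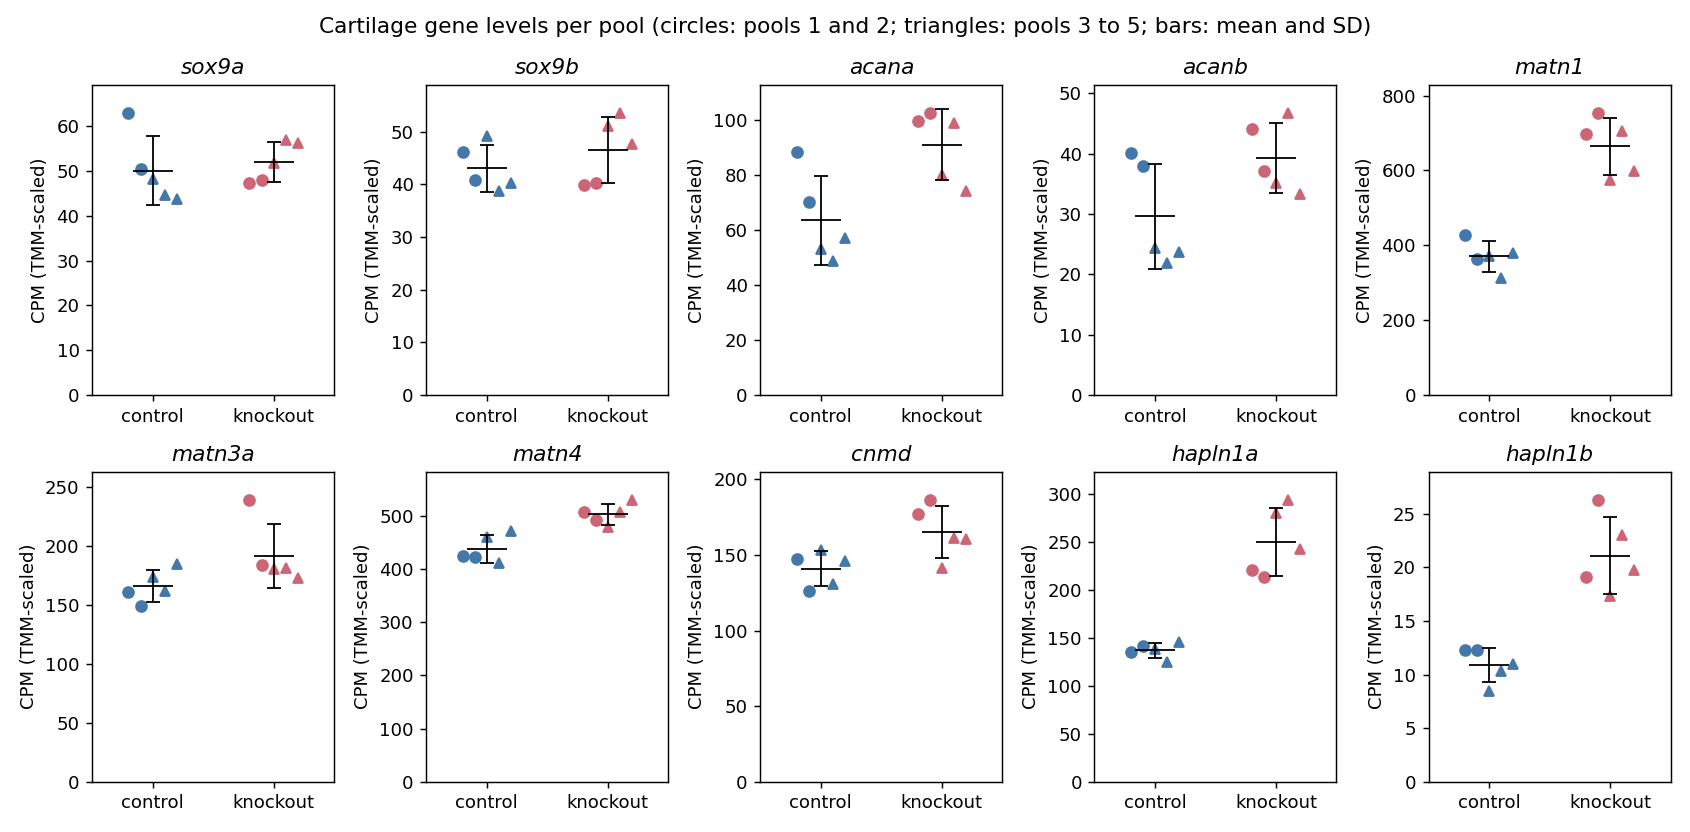
Level of each cartilage gene in CPM (linear axis from 0) in the 5 control pools (blue) and the 5 knockout pools (red). Circles are pools 1 and 2, triangles pools 3 to 5, and black bars the mean and SD. For hapln1a, hapln1b, matn1 and matn4 every knockout pool lies above every control pool.

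The link protein genes and matn1 had the highest log2 fold changes of the 10. The order of hapln1a and matn1 was not resolved, since they lay within 1 SE of each other and matn1 stood higher in pools 1 and 2 (0.87 against 0.64) and with the pools of each set summed (0.82 against 0.74). Hapln1 locks aggrecan onto hyaluronan and keeps the proteoglycan aggregate together. Transcripts of hapln1a (ENSDARG00000089769) stood in control pools 1 to 5 at 135, 142, 138, 125 and 145 CPM. Knockout pools 1 to 5 stood at 220.4, 213, 280.0, 294 and 242 CPM. The lowest knockout pool stood 1.47 times above the highest control. Knockout pools 3 to 5 were higher than knockout pools 1 and 2, whereas the controls of both sets lay close together. The means were 137 ± 7.82 and 249.9 ± 35.8 CPM (SD, n = 5 each), and edgeR put the difference at 0.87 in log2 units with a standard error of 0.10 and an adjusted p of 8.71e-05.

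Its paralogue hapln1b (ENSDARG00000068516) stood at 12.3, 12.3, 8.50, 10.3 and 11.0 CPM in control pools 1 to 5 and at 19.1, 26.3, 17.4, 23.0 and 19.8 CPM in knockout pools 1 to 5. No knockout pool overlapped the controls. In controls pools 1 and 2 lay above pools 3 to 5, and in knockouts high and low pools occurred in both sets. The means were 10.9 ± 1.58 and 21.1 ± 3.55 CPM (SD, n = 5 each), and edgeR put the difference at 0.96 in log2 units with a standard error of 0.13 and an adjusted p of 0.000293. Of all tested genes, 1.67% had a log2 fold change as high as that of hapln1b and 2.09% one as high as that of hapln1a.

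Among the matrilins, which are adaptor proteins of the cartilage matrix, matn1 rose and matn3a and matn4 were not called. Levels of matn1 (ENSDARG00000030215) in control pools 1 to 5 were 427.5, 364, 371, 311 and 380.3 CPM. In knockout pools 1 to 5 they were 696, 753, 574, 705 and 598 CPM. Every knockout pool lay at least 1.34 times above the highest control. The means were 371 ± 41.5 and 665 ± 76.1 CPM (SD, n = 5 each), and edgeR put the difference at 0.84 in log2 units with a standard error of 0.10 and an adjusted p of 0.000168.

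The level of matn4 (ENSDARG00000015947) ranged from 412 to 472 CPM in controls and from 479 to 530.5 CPM in knockouts. The groups did not overlap, but the gap was narrow, with the lowest knockout 1.01 times the highest control. The log2 fold change was 0.20 (SE 0.07, adjusted p = 0.0645, edgeR). Non-overlapping groups with the knockout higher occurred in 9.2% of all tested genes, and among the 10 cartilage genes in 4. The level of matn3a (ENSDARG00000069245), whose human counterpart is mutated in a form of epiphyseal dysplasia, ranged from 148.5 to 184 CPM in controls. In knockouts it ranged from 172.5 to 184 CPM in 4 pools and was 239 CPM in pool 1. The log2 fold change of matn3a was 0.21 (SE 0.10, adjusted p = 0.139, edgeR), with a 95% confidence interval from -0.01 to 0.42.

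The matrilins can be set against each other within a library, which removes the scaling between libraries. In control pools 1 to 5 the ratio of matn1 to matn4 counts was 1.01, 0.860, 0.805, 0.755 and 0.805. In knockout pools 1 to 5 the same ratio was 1.37, 1.53, 1.20, 1.39 and 1.13. The ratio was thus higher in every knockout pool than in every control. On the log2 scale the difference was 0.64 (two-sided exact permutation test over 252 assignments, p = 0.00794, the smallest the design allows; adjusted p = 0.0238 over 6 pairs; n = 5 each). The ratio of matn1 to matn3a also differed by 0.64, with the same exact p and adjusted p, and its values ran from 1.92 to 2.65 in controls and from 2.91 to 4.10 in knockouts. The ratio of matn3a to matn4 had means of 0.378 in both genotypes and a difference of 0.00 (exact permutation p = 0.976). These pairs were chosen after the values had been seen. Within pools 1 and 2 the matn1 to matn4 and matn1 to matn3a differences were 0.64 and 0.44, and within pools 3 to 5 they were 0.65 and 0.78. Such small groups cannot reach the threshold.

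**Figure D2:**
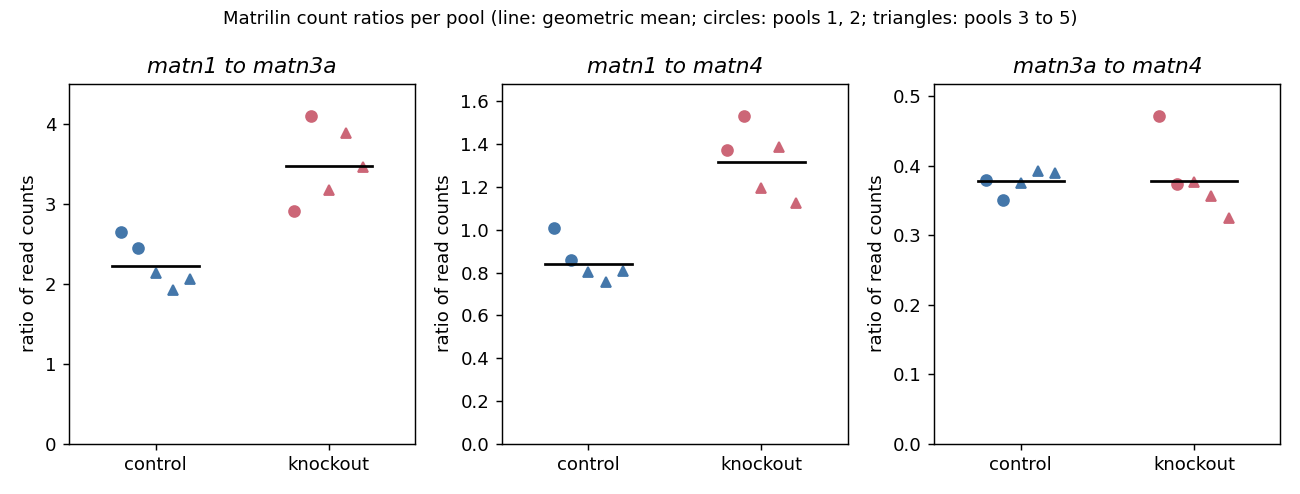
Ratio of read counts between matrilin genes in each library (linear axes from 0), with the geometric mean of 5 pools as a line; circles are pools 1 and 2 and triangles pools 3 to 5. Both ratios with matn1 are higher in every knockout pool, and the ratio of matn3a to matn4 overlaps between the genotypes.

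The aggrecan genes were higher on average but overlapped between genotypes, and the control sets differed. Control pools 1 to 5 held 88.6, 70.2, 53.1, 48.8 and 57.0 CPM of acana (ENSDARG00000035891), and knockout pools 1 to 5 held 99.8, 103, 80.1, 98.8 and 74.3 CPM. Control pool 1 lay within the knockout range, and 3 of 5 knockout pools lay above every control. The means were 63.6 ± 16.1 and 91.1 ± 12.9 CPM (SD, n = 5 each), and edgeR put the difference at 0.52 in log2 units with a standard error of 0.16 and an adjusted p of 0.0272. That call was lost when any 1 of control pools 3, 4 and 5 or knockout pools 1, 2 and 4 was left out (adjusted p = 0.0521 to 0.0687, edgeR). The control mean was 1.499 times higher in pools 1 and 2 than in pools 3 to 5.

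The second aggrecan gene, acanb (ENSDARG00000045799), also stood higher in the first control set, with 40.1 and 38.05 CPM in pools 1 and 2 and 24.4, 21.9 and 23.75 CPM in pools 3 to 5. Knockout pools 1 to 5 held 44.15, 37.2, 35.1, 46.7 and 33.3 CPM. All knockout pools lay above control pools 3 to 5 and beside control pools 1 and 2. The acanb log2 fold change of 0.41 (SE 0.18) was not called (adjusted p = 0.108, edgeR). Without control pool 1 it was called, at 0.51 (adjusted p = 0.0406, edgeR). Comparing the pairs of related genes within each library, the log2 ratio of acana to acanb differed between genotypes by 0.10 (exact permutation p = 0.381), that of hapln1a to hapln1b by -0.10 (exact p = 0.675) and that of sox9a to sox9b by -0.04 (exact p = 0.69; n = 5 each). None of these 3 differences passed the threshold, which does not show that the copies moved alike.

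Neither Sox9 gene was called. Levels of sox9a (ENSDARG00000003293), the copy best known from cartilage, were 62.99, 50.5, 48.3, 44.8 and 43.8 CPM in control pools 1 to 5. In knockout pools 1 to 5 they were 47.3, 48.1, 51.9, 57.0 and 56.4 CPM. The order of the sets was opposite in the genotypes, with the first set higher in controls and lower in knockouts. The log2 fold change of sox9a was 0.06 (SE 0.10, adjusted p = 0.687, edgeR), with a 95% confidence interval from -0.16 to 0.28, so a rise as large as that of matn1 lay outside the interval. Levels of sox9b (ENSDARG00000043923) ranged from 38.8 to 49.3 CPM in controls and from 39.8 to 53.55 CPM in knockouts. For sox9b edgeR gave a log2 fold change of 0.11 with an interval from -0.11 to 0.33 and an adjusted p of 0.444. The chondromodulin gene cnmd (ENSDARG00000100133), which encodes a cartilage glycoprotein that holds off blood vessels, ranged from 126 to 153.5 CPM in controls and from 141 to 186.5 CPM in knockouts. In 4 of 5 knockout pools cnmd lay above every control, and its log2 fold change of 0.23 (SE 0.09) was not called (adjusted p = 0.0727, edgeR).

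**Figure D3:**
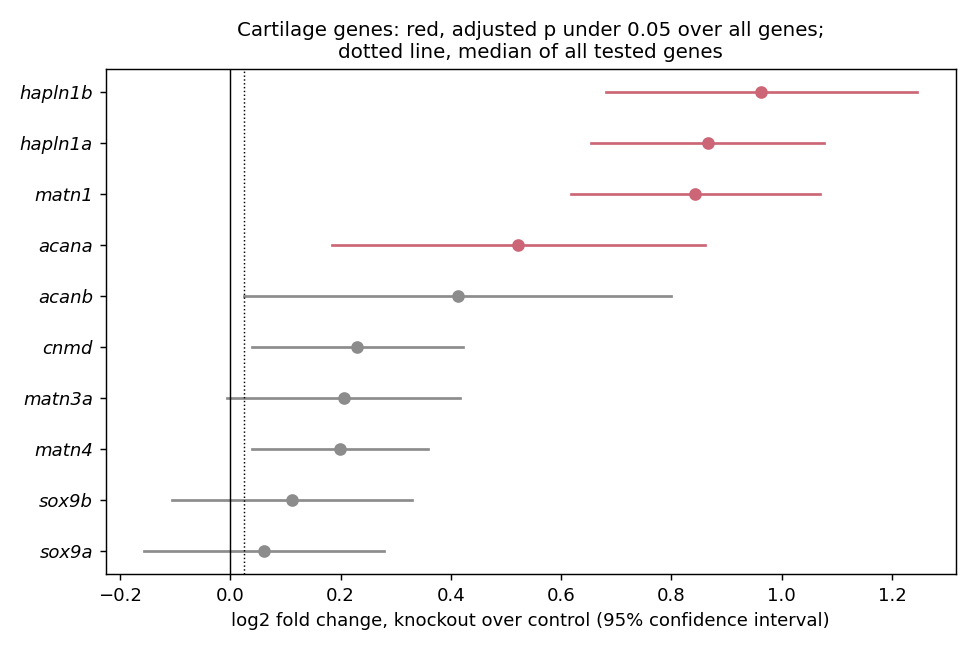
Log2 fold change of each cartilage gene, knockout over control, with 95% confidence intervals that are not adjusted for the number of genes. Red marks genes with an adjusted p under 0.05 over all tested genes, and the dotted line is the median of all tested genes (0.03); hapln1b, hapln1a, matn1 and acana are red.

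With sets matched by pool number, which the labels do not ask for, some genes were called higher in knockouts in both sets. Others were called in 1 set only, and matn4 and sox9b in neither. Compared by number, pools 1 and 2 (2 against 2) had 6 of the 10 genes called, where 21.4% of tested genes were called, and pools 3 to 5 (3 against 3) also had 6, where 41.3% were. Called in both comparisons were hapln1a (0.64 and 0.96), hapln1b (0.89 and 0.96), matn1 (0.87 and 0.78) and acana (0.35 and 0.63, log2 fold changes by edgeR). The log2 fold change of acanb was 0.05 in pools 1 and 2 (adjusted p = 0.764) and 0.67 in pools 3 to 5 (adjusted p = 0.00168, edgeR). Those of matn3a and cnmd went the other way, at 0.45 and 0.41 in pools 1 and 2 (adjusted p = 0.0185 and 0.00914, edgeR) against 0.00 and 0.07 in pools 3 to 5 (0.983 and 0.554). Knockout pool 1 held 239 CPM of matn3a, the outlying value described below, and knockout pool 2 held 184 CPM. Control pools 1 and 2 held 161 and 148.5 CPM. For sox9a the sign differed, at -0.25 (adjusted p = 0.124) and 0.24 (adjusted p = 0.0223, edgeR). The difference between the sets was not tested.

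Most pools deviated most like a pool of the other genotype in the other-numbered set. Same-numbered sets need not belong together, so ratios of mean CPM were also taken across all 4 pairings of a knockout set with a control set. They ran from 1.58 to 2.05 for matn1, from 1.56 to 2.00 for hapln1a and from 1.63 to 2.29 for hapln1b. For acana they ran from 1.06 to 1.91 and for acanb from 0.981 to 1.74. The narrowest range was that of matn4, from 1.11 to 1.19. Same-numbered sets gave 1.364 and 1.028 for matn3a, 1.33 and 1.074 for cnmd, and 0.8404 and 1.207 for sox9a. Sets of unlike number gave 1.22 and 1.15, 1.266 and 1.128, and 1.045 and 0.9711 in the same order of genes. The contrasts of these genes between sets were therefore narrower when sets of unlike number were paired. For sox9b the ratios were 0.9202 and 1.188 against 0.9349 and 1.169, so its contrast hardly changed. With each set summed to 1 sample, 2 sums against 2, hapln1b was called (0.94, adjusted p = 0.0237), while hapln1a (0.74, adjusted p = 0.0517) and matn1 (0.82, adjusted p = 0.0585, edgeR) missed the threshold and acana was at 0.44 (adjusted p = 0.315). In that comparison 2.85% of tested genes were called, and 0.903% were called higher.

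**Figure D4:**
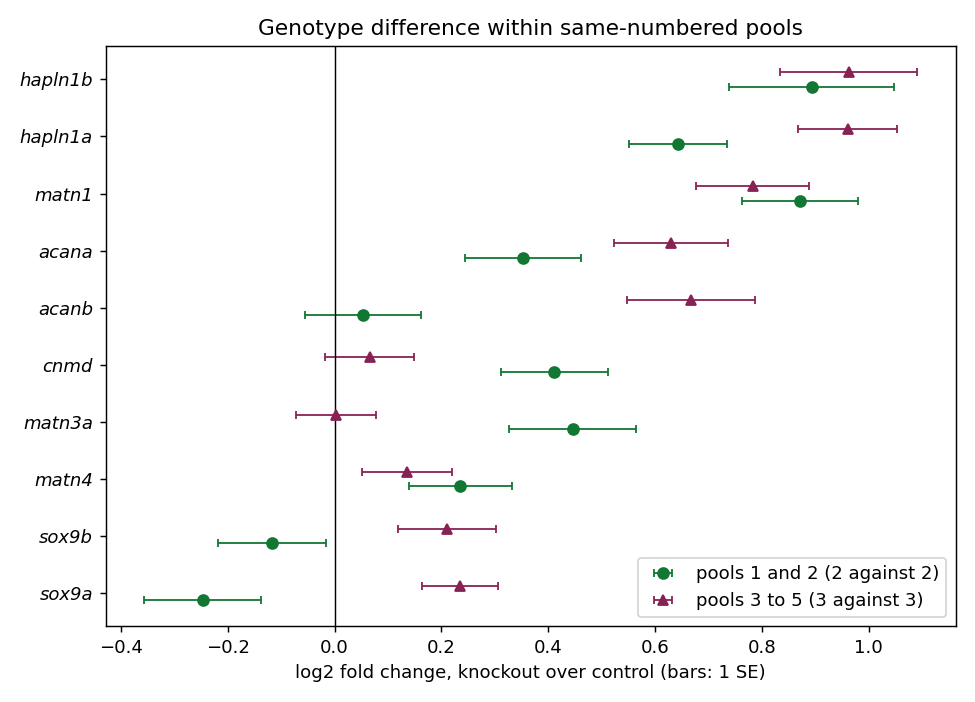
Log2 fold change of each cartilage gene, knockout over control, within pools 1 and 2 (green circles, 2 against 2) and within pools 3 to 5 (purple triangles, 3 against 3), with bars of 1 SE. Values for hapln1b, hapln1a and matn1 lie above 0.6 in both sets, and those for sox9a and sox9b lie on opposite sides of 0.

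Other genes of cartilage formation were read from lists that did not hold the 10 genes. Of these, the genes for glycosaminoglycan synthesis, which build and sulfate the chains that aggrecan carries or make hyaluronan, had the highest median. They also had the most calls, in the longest list. Here 13 of 24 tested genes were called higher, where 13.4% of all tested genes were. None was called lower by edgeR or DESeq2 or at an unadjusted p under 0.05, and the median log2 fold change was 0.30. The sulfate donor synthases papss2b and papss1 rose from 29.6 ± 2.98 to 48.5 ± 2.42 CPM and from 14.4 ± 0.707 to 25.5 ± 5.33 CPM (SD, n = 5 each). Their log2 fold changes were 0.71 (SE 0.08, adjusted p = 7.68e-05) and 0.83 (SE 0.13, adjusted p = 0.000748, edgeR). The chondroitin polymerising factor gene chpfa rose by 0.71 on the log2 scale (adjusted p = 0.00232, edgeR). The number called was 6 in pools 1 and 2, 14 in pools 3 to 5 and 1 in the summed sets, with medians of 0.29, 0.32 and 0.32. Of all tested genes, 21.4%, 41.3% and 2.85% were called in these comparisons.

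Chondrogenic transcription factors had 4 of 16 tested genes called, a share near the 25.8% of all genes. Where 13.4% of all tested genes were called higher, all 4 of these were. They included the Sox9 partner sox5 (0.41, adjusted p = 0.00197), the pharyngeal arch homeobox gene barx1 (0.63, adjusted p = 0.00275) and the zinc finger gene zbtb16a (0.40, adjusted p = 0.00339, edgeR). Against 13.4% of all tested genes, 4 of the 11 tested genes for secretion and modification of matrix proteins were called higher and none lower. Among them were the collagen prolyl hydroxylase subunit p4ha1b (0.96, adjusted p = 0.00132), the COPII coat gene sec24d (0.42, adjusted p = 0.00776) and the lysyl hydroxylase plod1a (0.37, adjusted p = 0.0186, edgeR). In the summed sets edgeR called no gene of either list, with 3 of 16 and 2 of 11 at an unadjusted p under 0.05. The transcription factors had 2 called higher and 1 lower in pools 1 and 2 (median log2 fold change 0.03). In pools 3 to 5 they had 8 called higher and none lower (median 0.34). The secretion genes had 4 called higher and 1 lower in pools 1 and 2, and 5 higher in pools 3 to 5. Of all tested genes, 21.4% and 41.3% were called in these comparisons. The call of plod1a was lost without control pool 4, knockout pool 3 or knockout pool 4, at an adjusted p of up to 0.0624 (edgeR), and the secretion list then had 2 called genes without pool 4 of either genotype.

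The remaining cartilage matrix genes were called in both directions. Of 20 tested, 2 were called higher and 3 lower, a share near the 25.8% of all genes, and the median was -0.02. The number called was 9 in pools 1 and 2 and 11 in pools 3 to 5, where 21.4% and 41.3% of all tested genes were called. In the summed sets edgeR called none, with 4 at an unadjusted p under 0.05. Levels of the lubricin gene prg4b fell, from 11.9 ± 1.57 to 6.16 ± 1.75 CPM (SD over 5 pools), which edgeR put at -0.94 on the log2 scale with a standard error of 0.17 and an adjusted p of 0.00192. The cartilage Gla protein gene ucmaa stood at 6.58 ± 1.12 CPM in controls and was lower, at 3.37 ± 1.101 CPM, in knockouts (SD over 5 pools). For ucmaa edgeR gave a difference of -0.98 in log2 units with an adjusted p of 0.0037, and the groups overlapped. Its paralogue ucmab, with means of 52.7 and 58.6 CPM, was not called (0.15, adjusted p = 0.43, edgeR). The chondrocyte proteoglycan gene snorc rose by 0.73 on the log2 scale (adjusted p = 0.00891, edgeR). Of the 9 other lecticans, link proteins and their partners that were tested, 1 was called higher and 1 lower, a share near the 25.8% of all genes. On the log2 scale versican vcana rose by 1.38 (adjusted p = 0.00246) from 0.6999 ± 0.158 CPM, and the brain lectican bcan fell by 0.27 (adjusted p = 0.0444, edgeR). The bcan call was lost in 8 of 10 fits with a library left out, and held without control pool 3 or knockout pool 1. In the summed sets edgeR called none of these 9 genes, with 1 at an unadjusted p under 0.05. Of the 9, 2 were called lower and none higher in pools 1 and 2. In pools 3 to 5, 3 were called higher and 2 lower. The other link protein genes hapln2, hapln3 and hapln4 were not called, at -0.30, -0.08 and -0.01.

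Growth plate signals had 3 of 16 tested genes higher and 1 lower, a share near the 25.8% of all genes. On the log2 scale the Hedgehog effector gli2a rose by 0.25 (adjusted p = 0.0158) and the growth factor receptor fgfr3 by 0.41 (adjusted p = 0.0177). The BMP family ligand gdf6a fell by 0.38 on that scale (adjusted p = 0.0165, edgeR). Of 10 tested entries for proteases that cut aggrecan or collagen, 4 were higher and 1 lower, against 13.4% and 12.5% of all tested genes. The higher entries included adamts1 (0.59, adjusted p = 0.0108), adamts15a (0.44, adjusted p = 0.0412) and 1 of 2 entries named mmp13a (1.35, adjusted p = 0.0175, edgeR). The other mmp13a entry changed by 0.25 (adjusted p = 0.301), and reads may have been divided between these copies. The lower entry was 1 of 2 named adamts15b (-0.57, adjusted p = 0.0424), and the other of that name was at 0.05 (adjusted p = 0.764, edgeR). The call of the lower entry held in 3 of 10 fits with a library left out. In the summed sets edgeR called no gene of either list, with 0 of 16 and 1 of 10 at an unadjusted p under 0.05. Growth plate signals had 1 called higher and 1 lower in pools 1 and 2, and 5 higher and 1 lower in pools 3 to 5. Of the protease entries, none was called higher and 1 lower in pools 1 and 2 (median log2 fold change -0.02). In pools 3 to 5, 4 were called higher and 1 lower (median 0.16). Of all tested genes, 21.4% and 41.3% were called in these comparisons. Single libraries decided several of the calls over all 10 pools. That of gli2a was lost without knockout pool 4, that of fgfr3 without control pool 4 or 5, and that of adamts15a in 7 of 10 fits with a library left out, those without control pools 1, 3, 4 and 5 or knockout pools 3 to 5. The growth plate list had 2 called genes without control pool 4, control pool 5 or knockout pool 4. The protease list had 2 without control pool 3 or knockout pools 3, 4 or 5, and 3 without control pools 1, 4 or 5.

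**Figure D5:**
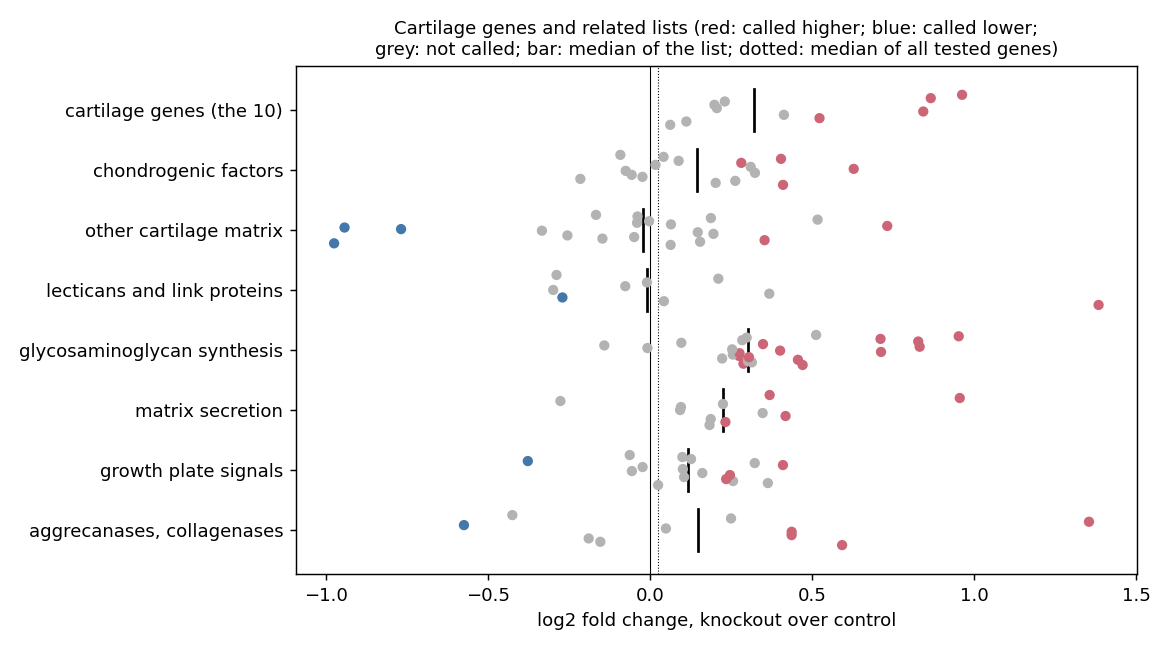
Log2 fold change, knockout over control, of each tested gene in the cartilage set and in 7 related lists. Red is called higher, blue called lower and grey not called (edgeR, adjusted p under 0.05); black bars are list medians, at 0.32 for the cartilage genes, 0.30 for glycosaminoglycan synthesis and -0.02 for the other cartilage matrix genes.

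Markers of other tissues that use some of these genes were read alongside, against the 13.4% of all tested genes called higher and 12.5% called lower. Of 6 tested osteoblast markers 3 were lower and the other 3 were not called, their summed level ran from 135 to 158 CPM in controls and from 114 to 117 CPM in knockouts, and bglap was near 0 in both genotypes (0.0101 and 0.0130 CPM). Of 8 notochord markers 2 were higher, with sums of 282 to 317 CPM and 281.5 to 345 CPM. Inner ear markers had 1 of 8 higher and 2 lower, with sums of 233 to 290.1 CPM and 254 to 326 CPM. Most of that sum was stm (means of 187 and 219 CPM, not called), and the list's median log2 fold change was -0.24. Retinal and radial glia markers had 4 of 7 higher and 1 lower, with sums of 1996 to 2508 CPM and 1776 to 2436 CPM, and 3 of 7 called without any 1 of control pools 1, 4 and 5 or knockout pools 3, 4 and 5. The lower gene, apoeb, made up a large part of that sum (means of 1119 and 829 CPM), while the list's median log2 fold change was 0.27. Fin fold markers had 1 of 6 higher and 3 lower, with sums of 1158 to 1330 CPM and 588 to 1015 CPM. No tendon marker of 6 was called by edgeR or DESeq2 (1 at an unadjusted p under 0.05), with sums of 633 to 762 CPM and 523.5 to 766.5 CPM. No marker on these lists was at 0 in all libraries. The part of these tissues in the cartilage gene levels was not tested. The summed level of the 10 cartilage genes was 1306 to 1546 CPM in controls and 1890 to 2127 CPM in knockouts. In this sum, as in those of the markers, genes with more counts weigh more.

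The genes whose pattern over the 10 pools lay closest to the average profile of the cartilage genes were cers2b, lamc1, gsk3ba, plod2 and col4a5. They were ranked among 20106 genes by the root mean square difference of centred log2 CPM, which was 0.03, 0.05, 0.06, 0.06 and 0.06. A ceramide synthase, a laminin chain, a kinase of the Wnt pathway, a lysyl hydroxylase and a basement membrane collagen are encoded by these 5 genes. For lamc1 the control mean was 205 ± 23.5 CPM and the knockout mean 284 ± 12.9 CPM (SD over 5 pools). By the same measure the 10 cartilage genes themselves lay 0.17 to 0.30 from their average. The 5 named genes were picked as the nearest of 20106, so their smaller distances come from the search and say nothing about the cartilage genes. In the gene order of the GRCz12tu RefSeq table, where all 10 names were found, acana alone shared a chromosome with a targeted gene, 169 tested genes away from the nearer of smad3a and smad6a.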

How the data were processed

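Whole larvae were sequenced as pools from RNA extracted on Qiagen columns, with 200 ng per library, per the labels' protocols. The authors deposited raw counts of reads for each Ensembl gene, with its name. The submitters' processing notes name GRCz11, FastQC 0.11.9, Trim Galore 0.6.6, featureCounts, Subread 2.0.0 and MultiQC 1.9; the use of strand in counting is not given in the sources used here, so overlapping genes remain uncertain. Nothing says how far pools were independent beyond the label of biological replicate.

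From these counts, genotypes were compared by edgeR 4.0.16 under R 4.3.3 (filterByExpr, TMM, robust quasi-likelihood test, Benjamini-Hochberg adjustment over 22894 tested genes of 32520, no covariates). Standard errors and 95% intervals were derived from the test statistic and its degrees of freedom. Log2 CPM for the likeness ranking used a prior count of 2 and genes of at least 1 CPM. Within-library ratios were compared by two-sided exact permutation tests. The procedure was tested on simulated counts. Their pools were drawn independently and without sets, so that test does not show how often calls are wrong in these data. Levels were not compared between genes, since no transcript lengths were used.

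The named genes were the 10 cartilage genes, the 4 targeted genes, at most 3 called genes per list with the lowest p, and the 5 genes nearest in profile. Named outside this rule, after their values were seen, were hapln2, hapln3, hapln4, bglap, stm, apoeb, ucmab, the other mmp13a entry and both adamts15b entries. The members and lists were chosen with earlier results of these data known. Alternatives were the DESeq2 1.42.0 Wald test, scaling by its size factors, by library totals or by the upper quartile, a filter at a mean of 1 CPM or none, each library left out, the replicate number as a block and the pool sets summed or taken alone. The ratios, and the alternatives for them and for the lists, were chosen after seeing the data.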

Additional observations from a re-analysis of the deposited data

Results flagged for a closer look

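In knockout pool 1 the level of matn3a was 239 CPM, far from the other 4 knockout pools (172.5 to 184 CPM). The gap to the next pool was 0.833 of the whole range, above the critical value of 0.71 for 5 samples. At that critical value chance flags about 1 in 20 groups, and 20 groups were examined. That rate takes no account of the pool sets or of how far a gap exceeds the critical value. The cause of the high value was not tested. Without this pool the log2 fold change of matn3a was 0.11.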

How the results depend on the processing

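The median log2 fold change of the 10 cartilage genes was above 0 under all 20 alternatives, between 0.26 and 0.43, the latter in pools 3 to 5 alone, where 9551 genes were called in all. Of 200 alternative values for single cartilage genes, 180 kept both direction and side of the threshold. Library totals alone, which put the median of all genes at 0.11, called 7 of the 10 genes by adding matn3a, matn4 and cnmd, and 6816 genes in all. The summed pool sets called 700 genes and 1 of the 10; fewer samples enter that test. In pools 1 and 2 alone sox9a (-0.25) and sox9b (-0.12) turned negative, and the cause was not tested. Among log2 ratios that were never called, those of sox9a to sox9b (0.017), acana to acanb (-0.037) and matn3a to matn4 (-0.13) changed sign in pools 3 to 5. With each library left out they ran from -0.0999 to 0.0196 for the sox9 pair, from -0.208 to 0.0404 for the hapln1 pair and from -0.0794 to 0.0542 for matn3a to matn4. Same-numbered pools did not deviate together (correlations of -0.15 to 0.00), which does not settle whether pools were handled in pairs. Both genotypes divided into sets at the same numbers. By deviation, control pools 1 and 2 correlated most highly with knockout pool 4, and control pools 3, 4 and 5 with knockout pool 2. Knockout pools 1 to 4 correlated most highly with control pools 4, 5, 2 and 1, and knockout pool 5 with control pool 3. All of these partners but the last lay in the other-numbered set, and the reason was not tested. With the replicate number as a block 4543 genes were called, and 4 of the 10. Depth limits hapln1b most, whose lowest count of 200 carries a counting error of 7.07%.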
